A study of Mus musculus with 9 samples.

Results

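The acute-phase protein genes described here are 10 genes whose secreted products are known to rise sharply in inflammation: the serum amyloids Saa1, Saa2 and Saa3, the lipocalin Lcn2, the orosomucoids Orm1 and Orm2, the haptoglobin gene Hp, the pentraxin Ptx3, the chitinase-like gene Chil1 and Lrg1. They were taken by symbol from a table of 52381 genes, and each symbol had 1 row. Expression was measured by RNA sequencing of lung tissue from 9 mice, 1 library per mouse, all given lipopolysaccharide (LPS), the endotoxin of Gram-negative bacteria, to produce acute lung injury (ALI). The first group holds 5 mice with LPS injury that were treated with trimethylamine N-oxide (TMAO), which the liver forms from a product of gut bacteria, and is called TMAO here. The second holds 4 mice with LPS injury alone, called LPS-ALI. The sources used here do not state strain, sex, age, doses or times. Because every mouse had LPS injury, the induction of these genes by LPS is not measured, and uninjured mice are not analysed here.

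The acute phase is the systemic response to infection and tissue injury. Interleukin-6 signals through STAT3, and interleukin-1 and tumour necrosis factor signal through NF-kB and the C/EBP transcription factors, to switch on genes for proteins that bind lipids, iron carriers, free haemoglobin and microbes. The liver makes the bulk of the circulating proteins, whereas epithelial cells, macrophages and neutrophils of the lung make several of them locally, among them SAA3, lipocalin 2, pentraxin 3 and chitinase-like 1.

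Values are FPKM, fragments per kilobase of gene length scaled to the fragments sequenced. Comparisons of level between genes depend on the gene lengths used, which are not stated. The merged annotated exons of Saa1, Saa2 and Saa3 have 2478, 2518 and 2606 bases, and their transcripts compared below have 609, 606 and 555 bases. For Orm1 and Orm2 both lengths are 775 bases. Ranks, shares and ratios between genes are therefore uncertain in level. The relative sequencing depth was read from the commonest FPKM ratio to LPS-ALI replicate 3, set at 1, among genes seen in at most 5 libraries. It was 0.382 to 0.681 in TMAO libraries and 0.497 to 1 in LPS-ALI libraries, and absolute depth is unknown. Mitochondrially encoded genes took up 35.9% to 52.2% of FPKM in TMAO and 33.4% to 48.1% in LPS-ALI lungs. TMAO replicate 5 and LPS-ALI replicate 4 stood apart from the other 7 libraries. TMAO replicate 5 was the shallowest, with 8846 genes that reached 1 FPKM, where each of the others had 11158 to 12239, and 74.7% of tested genes had their lowest value there. In LPS-ALI replicate 4 the sum of 10 alveolar type 2 markers was 1313 FPKM against 4965 to 14908 in the others, and that of 7 red cell markers was 2327 against 124 to 291. Column codes start with the letter X for LPS-ALI replicates 3 and 4 and with B for the remaining 7 libraries, and the meaning of the letters is not stated. Alveolar type 2 markers, which define lung epithelium, were thus present in every library, and 8 platelet markers summed to 19.3 to 27.8 FPKM in TMAO and 32.0 to 77.6 in LPS-ALI lungs.

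The design sets TMAO against LPS-ALI lungs, which addresses how TMAO changes expression in injured lung. Saa3, the highest of the 10 genes in FPKM, averaged 2711 FPKM in TMAO and 8456 in LPS-ALI lungs, and each TMAO lung was below each LPS-ALI lung. Its neighbours Saa1 and Saa2, which encode the serum amyloids best known from the liver, had similar means in the groups. Lcn2, Orm1, Orm2 and Ptx3 had lower means in TMAO lungs, and in each of them the highest value of all was in LPS-ALI replicate 4. That library held the highest value of 26.9% of tested genes. Hp and Chil1 had a different order, with their highest values in LPS-ALI replicates 1 and 2. No member passed the test over all genes: by limma on log2(FPKM + 1) with Benjamini-Hochberg adjustment, each of the 9 members tested had an adjusted p of 0.998. The share of the 11817 tested genes called at an adjusted p of 0.05 was 0%, and 3.35% had an unadjusted p below 0.05. Ptx3 was not tested because its FPKM reached 1 in 2 libraries, under the minimum of 4.

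**Figure D1:**
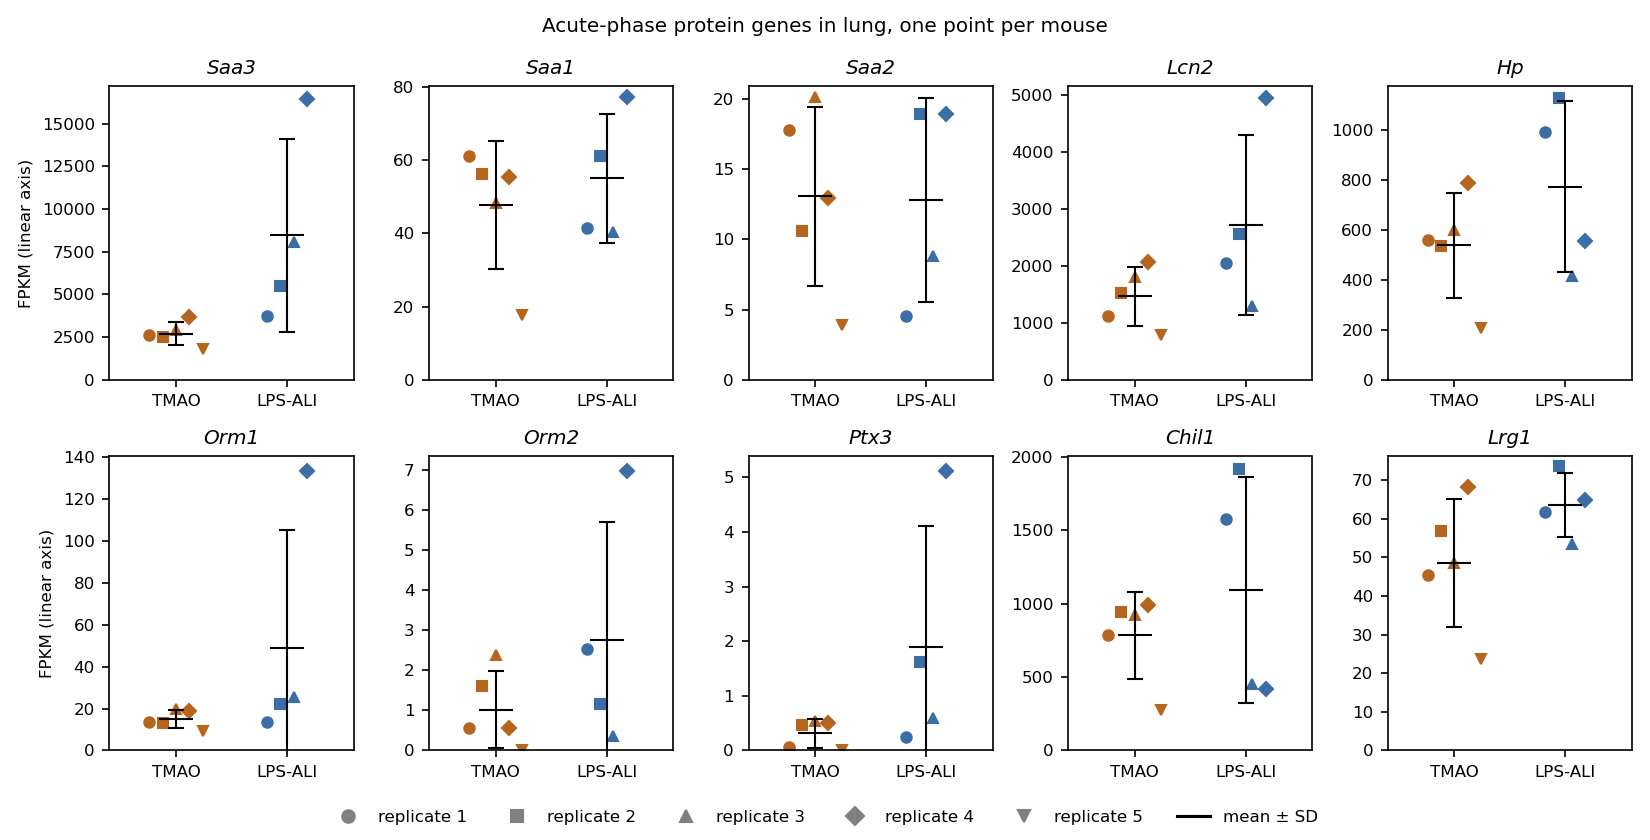
FPKM of the 10 members in 5 TMAO and 4 LPS-ALI lungs, 1 point per mouse on linear axes that start at 0, with the mean and SD in black (SD bars that reach below 0 are cut there). Saa3 spans 1817 to 3683 FPKM in TMAO and 3745 to 16466 in LPS-ALI lungs. LPS-ALI replicate 4 holds the highest value of 6 members, and of 26.9% of tested genes.

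Saa3 encodes the serum amyloid A that mouse macrophages, fat and epithelial cells make outside the liver. The gene (ENSMUSG00000040026) lies on the minus strand of chromosome 7 from 46711998 to 46715700 of GRCm38. Its level was 2630, 2507, 2919, 3683 and 1817 FPKM in TMAO replicates 1 to 5, and 3745, 5514, 8098 and 16466 FPKM in LPS-ALI replicates 1 to 4. The groups did not overlap, but the gap was narrow, between 3683 in TMAO replicate 4 and 3745 in LPS-ALI replicate 1. Groups without overlap and lower in TMAO were found for 1.36% of tested genes, and Saa3 is 1 of the 9 tested members. The mean in TMAO lungs was 0.321 of that in LPS-ALI lungs (2711 ± 677, SD, n = 5, and 8456 ± 5632, SD, n = 4). The log2 difference, TMAO minus LPS-ALI, was -1.45 ± 0.35 (SE), with rank 7 by limma p among all tested genes (unadjusted p = 0.00093). The median tested gene was itself shifted by -0.17, and relative to it Saa3 differed by -1.29. An exact two-sided permutation test over all 126 ways to assign the libraries to the groups gave p = 0.00794, the smallest these group sizes allow. Saa3 was chosen for description with this difference already known, so the p-values describe it and do not add independent evidence.

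Within a library Saa3 ranked between 27 and 43 among all genes in TMAO lungs and between 12 and 28 in LPS-ALI lungs. It held 0.401%, 0.375%, 0.437%, 0.585% and 0.249% of the FPKM outside the mitochondrial genome in TMAO replicates 1 to 5, and 0.540%, 0.778%, 1.10% and 2.24% in LPS-ALI replicates 1 to 4. On this scale the groups touched, since TMAO replicate 4 exceeded LPS-ALI replicate 1, and the non-overlap also ended under median-of-ratios scaling, quantile normalization and rescaling to TPM. The log2 difference stayed negative in each alternative run, from -1.77 to -0.78. The smallest of these differences was -0.78 ± 0.27 (SE), without the X-coded LPS-ALI libraries, where the groups did not overlap. Without LPS-ALI replicate 4 and TMAO replicate 5 together it was -0.92 ± 0.26. With library weights, which give libraries that stand apart less influence, the limma adjusted p was 0.0472 at a difference of -1.01. Macrophages are among the cells that make SAA3. Of 12 alveolar macrophage markers 11 were found. They summed to 114.58 to 166.96 FPKM in TMAO lungs, and to 130, 143, 140 and 357 FPKM in LPS-ALI replicates 1 to 4. Among them Siglecf had 0.33 to 1.5 FPKM over all 9 libraries, and Car4 is also on the list of endothelial markers. Of the 11 found, 10 were tested and 9 were lower in TMAO, with 0 unadjusted p below 0.05. Over all tested genes 72.1% were lower in TMAO, and 2.93% were lower with an unadjusted p below 0.05. The 11 monocyte and interstitial macrophage markers summed to 117 to 328 FPKM in TMAO and 305 to 425 in LPS-ALI lungs, and all 9 tested were lower in TMAO, 1 of them with an unadjusted p below 0.05. Epithelial markers went in differing directions. The 8 ciliated cell markers summed to 40.7 to 91.2 FPKM in TMAO lungs and 64.1 to 152 in LPS-ALI lungs, highest in LPS-ALI replicate 4. All 5 tested had a negative difference, 4 of them with an unadjusted p below 0.05. Their median was -1.03, against -0.17 for all tested genes. Such counts of low genes can be raised by the filter, since its 1 FPKM in 4 libraries can be met by the 4 LPS-ALI libraries alone. The 9 club and airway secretory markers summed to 11665 to 18004 FPKM in TMAO and 10339 to 31033 in LPS-ALI lungs, with 5 of 7 tested higher in TMAO, none at an unadjusted p below 0.05, and a median of 0.78. Of the 10 alveolar type 2 markers 7 were higher in TMAO, with a median of 0.09. The part of macrophages and epithelial cells in the Saa3 and Lcn2 differences was not tested.

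Saa1 (ENSMUSG00000074115, chromosome 7 from 46740497 to 46742980, minus strand) and Saa2 (ENSMUSG00000057465, chromosome 7 from 46751790 to 46754313, plus strand) encode the main circulating serum amyloids, carried on high-density lipoprotein. Saa1 had 61.0, 56.2, 48.2, 55.3 and 17.8 FPKM in TMAO replicates 1 to 5, and 41.4, 61.1, 40.2 and 77.2 FPKM in LPS-ALI replicates 1 to 4. Of these TMAO values 4 lie inside the LPS-ALI range, and TMAO replicate 5 lies below it. Saa2 had 17.8, 10.6, 20.1, 12.96 and 3.89 FPKM in TMAO replicates 1 to 5, and 4.54, 19.0, 8.81 and 18.9 FPKM in LPS-ALI replicates 1 to 4. Its values overlapped across nearly their whole range. The log2 difference was -0.26 ± 0.39 for Saa1 and 0.05 ± 0.49 for Saa2 (SE; limma unadjusted p = 0.515 and 0.915), and its sign turned for both genes when single libraries were left out. Exact permutation gave p = 0.651 for Saa1 and p = 0.937 for Saa2. The annotated transcripts of Saa1 and Saa2 are 93.9% identical and share a run of 99 bases, so reads can be split between them and the separate values are uncertain. Saa3 shares 57.9% of aligned bases with Saa1 and 58.8% with Saa2, with shared runs of 58 and 41 bases at most.

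The ratio of Saa3 to Saa1 within a library does not depend on how libraries are scaled. It was 43.1, 44.6, 60.6, 66.6 and 102.1 in TMAO replicates 1 to 5, and 90.4, 90.3, 201.3 and 213.3 in LPS-ALI replicates 1 to 4. TMAO replicates 1 to 4 lay below every LPS-ALI lung, and TMAO replicate 5 lay within the LPS-ALI range. The ratio of Saa1 to Saa2 had medians of 4.27 in TMAO and 4.33 in LPS-ALI lungs.

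**Figure D2:**
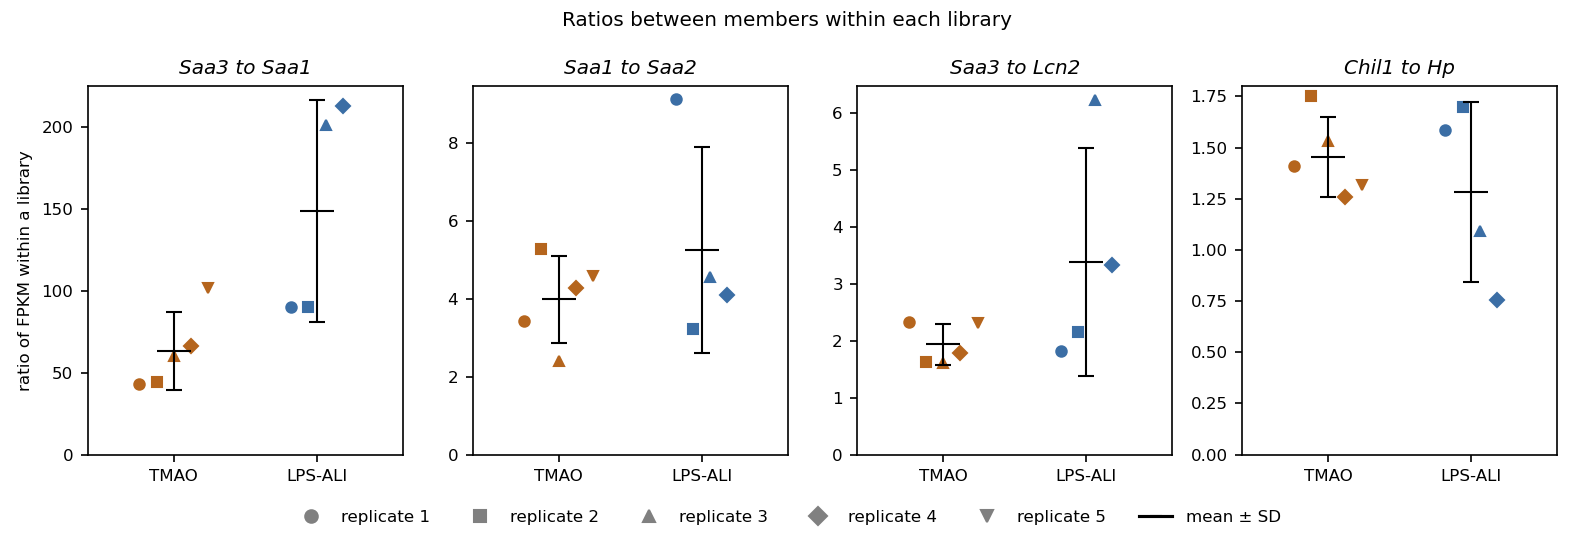
Ratio of the FPKM of paired members within each library, 1 point per mouse with mean and SD, on linear axes that start at 0. Saa3 to Saa1 ranges from 43.1 to 102.1 in TMAO and from 90.3 to 213.3 in LPS-ALI lungs, while Saa1 to Saa2 overlaps between the groups.

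The promoter windows of the serum amyloid genes and Lcn2 are shown because these neighbouring or co-induced genes differ in level and in difference between the groups. The sequences are from RefSeq on GRCm38.p6, run 5′ to 3′ on the strand of the gene from 250 bases before the start site to 50 bases from it, and capitals mark matches to the C/EBP pattern TTGCNNAA on either strand.
Saa3, chr7:46715627-46715926, minus strand: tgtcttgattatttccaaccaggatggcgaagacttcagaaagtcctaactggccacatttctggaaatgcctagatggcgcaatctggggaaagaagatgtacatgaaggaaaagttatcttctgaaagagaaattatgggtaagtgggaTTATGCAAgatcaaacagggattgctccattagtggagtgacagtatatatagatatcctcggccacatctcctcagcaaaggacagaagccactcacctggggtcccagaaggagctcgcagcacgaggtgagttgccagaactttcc
Saa1, chr7:46742931-46743230, minus strand: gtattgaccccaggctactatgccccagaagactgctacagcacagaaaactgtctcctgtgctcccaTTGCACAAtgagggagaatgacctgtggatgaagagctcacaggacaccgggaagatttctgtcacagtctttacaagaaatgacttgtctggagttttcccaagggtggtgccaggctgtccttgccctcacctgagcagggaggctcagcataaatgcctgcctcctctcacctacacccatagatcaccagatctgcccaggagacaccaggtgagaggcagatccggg
Saa2, chr7:46751583-46751882, plus strand: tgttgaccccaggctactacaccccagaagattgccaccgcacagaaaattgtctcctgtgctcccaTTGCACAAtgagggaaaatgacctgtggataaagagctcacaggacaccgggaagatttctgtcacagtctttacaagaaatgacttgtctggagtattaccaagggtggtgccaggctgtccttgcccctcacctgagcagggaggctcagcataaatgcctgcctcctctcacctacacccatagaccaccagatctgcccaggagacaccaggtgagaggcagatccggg
Lcn2, chr2:32387690-32387989, minus strand: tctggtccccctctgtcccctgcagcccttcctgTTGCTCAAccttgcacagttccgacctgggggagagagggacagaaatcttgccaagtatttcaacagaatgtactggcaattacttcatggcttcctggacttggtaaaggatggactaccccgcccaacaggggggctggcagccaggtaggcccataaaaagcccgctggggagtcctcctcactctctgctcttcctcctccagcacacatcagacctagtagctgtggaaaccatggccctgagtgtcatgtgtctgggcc
The Saa1 and Saa2 windows are 95.3% identical and hold the same match, TTGCACAA, while Saa3 shares 45.9% of aligned bases with Saa1. In the Saa3 window the match TTATGCAA begins 99 bases before the start site and is read on the opposite strand. Windows were found for 8 of the 10 members, and 6 of these held the C/EBP pattern, against 10.8% of 32851 windows in the table. Besides the windows shown, Orm2 held it as TTGCGCAA, 120 bases before the start site, and Ptx3 as TTGTGCAA, 57 bases before it. Matches to a partial NF-kB pattern (GGG, any 3 bases, then TTCC) were in 1 of the 8 windows, that of Lrg1, and in 5.56% of all windows. The STAT pattern TTCNNNGAA was in 0 of the 8 and in 8.30% of all windows, and TATAAA was in those of Orm2 and Lrg1 and in 13.6% of all. Such matches describe these windows and say nothing of what binds there.

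Lcn2 encodes lipocalin 2, which takes iron-carrying siderophores from bacteria and is made by epithelium and stored in neutrophil granules. The gene (ENSMUSG00000026822, chromosome 2 from 32384633 to 32388252) had 1127, 1532, 1808, 2071 and 783 FPKM in TMAO replicates 1 to 5, and 2057, 2563, 1298 and 4946 FPKM in LPS-ALI replicates 1 to 4. The groups overlapped, since LPS-ALI replicate 3 lay below 3 of the TMAO lungs. Means were 1464 ± 517 (SD, n = 5) in TMAO and 2716 ± 1575 (SD, n = 4) in LPS-ALI lungs, and the log2 difference was -0.80 ± 0.37 (SE; limma unadjusted p = 0.0469, exact permutation p = 0.135). An unadjusted p below 0.05 with a lower value in TMAO was found for 2.93% of tested genes, and for Saa3 and Lcn2 among the 9 tested members. Without LPS-ALI replicate 4 the Lcn2 difference was -0.46, and without TMAO replicate 5 as well it was -0.25. Lcn2 ranked between 35 and 86 among all genes in TMAO and between 23 and 39 in LPS-ALI lungs. Together Saa3 and Lcn2 made up 71.4% to 82.9% of the summed FPKM of the 10 members in TMAO and 68.3% to 94.3% in LPS-ALI lungs.

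The ratio of Saa3 to Lcn2 was 1.61 to 2.33 in the TMAO lungs, and 1.82, 2.15, 6.24 and 3.33 in LPS-ALI replicates 1 to 4. The X-coded LPS-ALI libraries thus held the highest ratios, and the B-coded ones lay inside the TMAO range. The sum of 13 neutrophil markers was 7862 to 14883 FPKM in TMAO and 7870 to 20921 in LPS-ALI lungs, and LPS-ALI replicate 4, with the highest Lcn2, had the lowest neutrophil sum of its group. All 13 were tested, 11 were lower in TMAO, 1 of them (Il1r2) had an unadjusted p below 0.05, and none was at 0 in every library. Over all tested genes 72.1% were lower in TMAO, and 2.93% were lower with an unadjusted p below 0.05. Markers of neutrophil precursors, which fill the granules that store lipocalin 2, summed to 145 to 494 FPKM in TMAO and 387 to 849 in LPS-ALI lungs. Of these 10 markers 6 were tested and 5 were lower in TMAO, with an unadjusted p below 0.05 for the granule protein genes Camp and Ngp, while Elane and Mpo stayed at or below 0.55 FPKM in TMAO and 1.08 in LPS-ALI lungs. The precursor list shares Chil3 with the list of monocyte and interstitial macrophage markers. The part of neutrophils and their precursors in the Lcn2 difference was not tested.

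Hp encodes haptoglobin, which binds free haemoglobin, and in mice it is made in liver, lung and neutrophils. The gene (ENSMUSG00000031722, chromosome 8 from 109575128 to 109579172) had 559, 537, 601, 788 and 209 FPKM in TMAO replicates 1 to 5, and 994, 1131, 417 and 555 FPKM in LPS-ALI replicates 1 to 4. The B-coded LPS-ALI lungs were above every TMAO lung, and the X-coded ones lay within the TMAO range. The log2 difference was -0.53 ± 0.40 (SE; limma unadjusted p = 0.201, exact permutation p = 0.325). It was -0.22 without TMAO replicate 5 and -0.31 without LPS-ALI replicate 2. Against the B-coded LPS-ALI lungs alone it was -1.10 ± 0.42 (limma unadjusted p = 0.0201, adjusted p = 0.9997). Red cell markers were highest in LPS-ALI replicate 4, where Hp had 555 FPKM, and their part in the Hp values was not tested.

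Chil1 encodes chitinase-like 1, a secreted protein of macrophages, neutrophils and epithelium that binds chitin without cutting it. The gene (ENSMUSG00000064246, chromosome 1 from 134182176 to 134190181) had 788, 940, 920, 992 and 275 FPKM in TMAO replicates 1 to 5, and 1575, 1919, 455 and 421 FPKM in LPS-ALI replicates 1 to 4. As for Hp, the B-coded LPS-ALI lungs were above every TMAO lung, while the X-coded ones were below 4 of the 5. The log2 difference was -0.29 ± 0.49 (SE; limma unadjusted p = 0.566, exact permutation p = 0.706), and -1.28 ± 0.43 against the B-coded LPS-ALI lungs alone (limma unadjusted p = 0.0102, adjusted p = 0.9997). Within the B code, Saa3, Hp and Chil1 were the members whose TMAO values all lay below the LPS-ALI values, as did 5.97% of tested genes. With 5 lungs against 2 this comparison rests on LPS-ALI replicates 1 and 2, and the code and the group cannot be told apart for the X-coded libraries, which occur in LPS-ALI alone. The ratio of Chil1 to Hp was 1.26 to 1.75 in TMAO lungs, and 1.58, 1.697, 1.09 and 0.758 in LPS-ALI replicates 1 to 4. Beside these values, alveolar type 2 markers summed to 4965 to 11175 FPKM in TMAO lungs and to 14908, 13097, 7845 and 1313 FPKM in LPS-ALI replicates 1 to 4, none of the 10 at 0. Their part in the Hp and Chil1 values was not tested. In bulk tissue, fewer cells of a type and less RNA per cell cannot be told apart.

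Orm1 and Orm2 encode alpha-1-acid glycoproteins, plasma proteins that bind small lipophilic molecules. Orm1 (ENSMUSG00000039196, chromosome 4 from 63344560 to 63348163) had 13.7, 13.03, 19.6, 18.7 and 9.19 FPKM in TMAO replicates 1 to 5, and 13.6, 22.3, 25.8 and 133 FPKM in LPS-ALI replicates 1 to 4. The value in LPS-ALI replicate 4 was 5.18 times the next highest of its group, and LPS-ALI replicate 1 lay among the TMAO lungs. The log2 difference of -1.12 ± 0.53 (SE; limma unadjusted p = 0.0515, exact permutation p = 0.0556) shrank to -0.44 without LPS-ALI replicate 4. Against the B-coded LPS-ALI lungs alone it was -0.26 ± 0.46 (limma unadjusted p = 0.571), close to the median tested gene of that comparison at -0.22. Red cell and alveolar macrophage markers were also highest in LPS-ALI replicate 4, and their part in its Orm1 value was not tested. Orm2 (ENSMUSG00000061540, chromosome 4 from 63362449 to 63365878) was near the limit of detection, with 0.55, 1.6, 2.38, 0.57 and 0 FPKM in TMAO replicates 1 to 5, and 2.52, 1.16, 0.37 and 6.97 FPKM in LPS-ALI replicates 1 to 4. Its values overlapped, and its log2 difference was -0.71 ± 0.47 (limma unadjusted p = 0.150), and -0.24 without LPS-ALI replicate 4. The transcripts of Orm1 and Orm2 are 91.0% identical and share a run of 141 bases, so the low Orm2 values can hold reads of Orm1.

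Ptx3 encodes the long pentraxin, a soluble pattern-recognition protein that binds microbes and complement C1q. The gene (ENSMUSG00000027832, chromosome 3 from 66219910 to 66225805) was at 0.06, 0.46, 0.54, 0.50 and 0 FPKM in TMAO replicates 1 to 5, and at 0.25, 1.62, 0.60 and 5.11 FPKM in LPS-ALI replicates 1 to 4. Again LPS-ALI replicate 4 was highest, and LPS-ALI replicate 1 lay inside the TMAO range. On the log2(FPKM + 1) scale exact permutation gave p = 0.0794, and without the filter on low values the limma difference was -0.88 ± 0.42 (unadjusted p = 0.0644).

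Lrg1 encodes leucine-rich alpha-2-glycoprotein, which modifies TGF-beta signalling in endothelium. The gene (ENSMUSG00000037095, chromosome 17 from 56119678 to 56122001) had 45.4, 56.8, 48.6, 68.2 and 23.6 FPKM in TMAO replicates 1 to 5, and 61.9, 73.7, 53.5 and 64.9 FPKM in LPS-ALI replicates 1 to 4. In 3 of the 5 TMAO lungs Lrg1 was below the lowest LPS-ALI lung. It varied least of the members among LPS-ALI lungs, with a coefficient of variation of 13.1%, against 116% for Orm1 and 66.6% for Saa3. The log2 difference was -0.45 ± 0.34 (SE; limma unadjusted p = 0.207, exact permutation p = 0.151), and -0.22 without TMAO replicate 5.

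**Figure D3:**
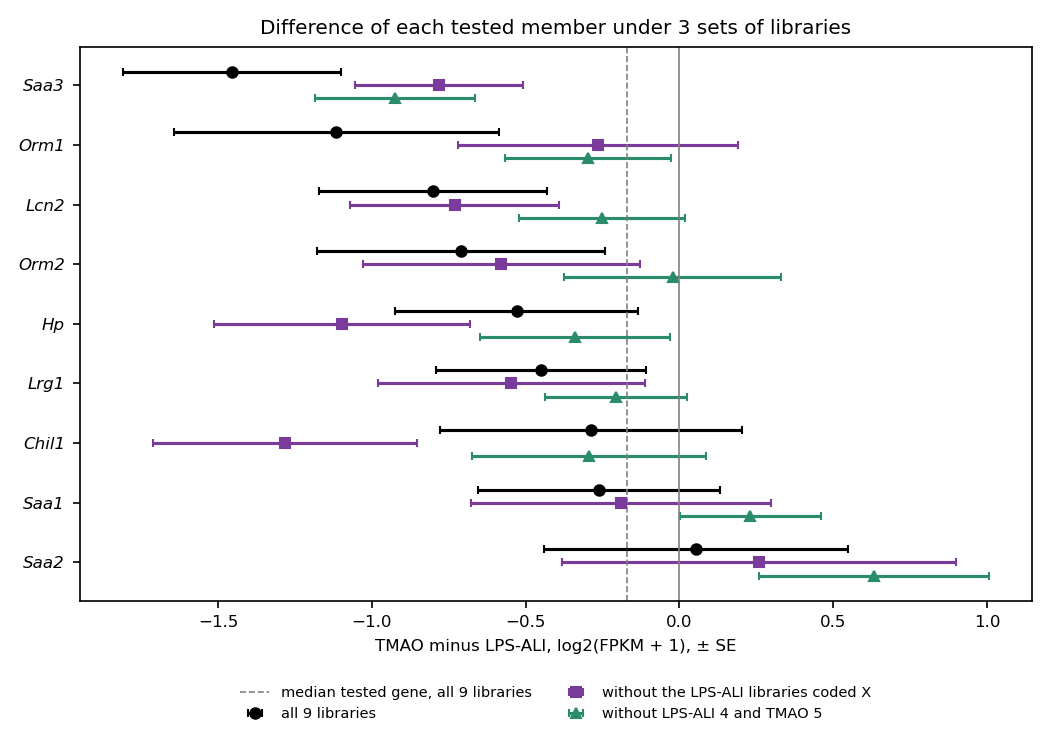
Log2 difference (TMAO minus LPS-ALI, log2(FPKM + 1)) ± SE of the 9 tested members with all 9 libraries, without the X-coded LPS-ALI libraries, and without LPS-ALI replicate 4 and TMAO replicate 5; the dashed line is the median tested gene at -0.17. Saa3 is at -1.45, -0.78 and -0.92, whereas Chil1 is at -0.29, -1.28 and -0.29.

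Of the 9 tested members 8 had a negative log2 difference and 8 lay below the median gene, with a median of -0.53, or -0.36 relative to that gene. Over all tested genes 72.1% had a negative difference and 50% lay below the median gene, whose difference was -0.17. TMAO replicate 5 held the lowest value of all 10 members, and it held the lowest value of 74.7% of tested genes. LPS-ALI replicate 4 held the highest value of 6 members, against 26.9% of tested genes. The 10 members summed to 5242, 5655, 6389, 7690 and 3138 FPKM in TMAO replicates 1 to 5, and to 8496, 11306, 10397 and 22695 FPKM in LPS-ALI replicates 1 to 4, and Saa3 was the largest single part of each sum.

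**Figure D4:**
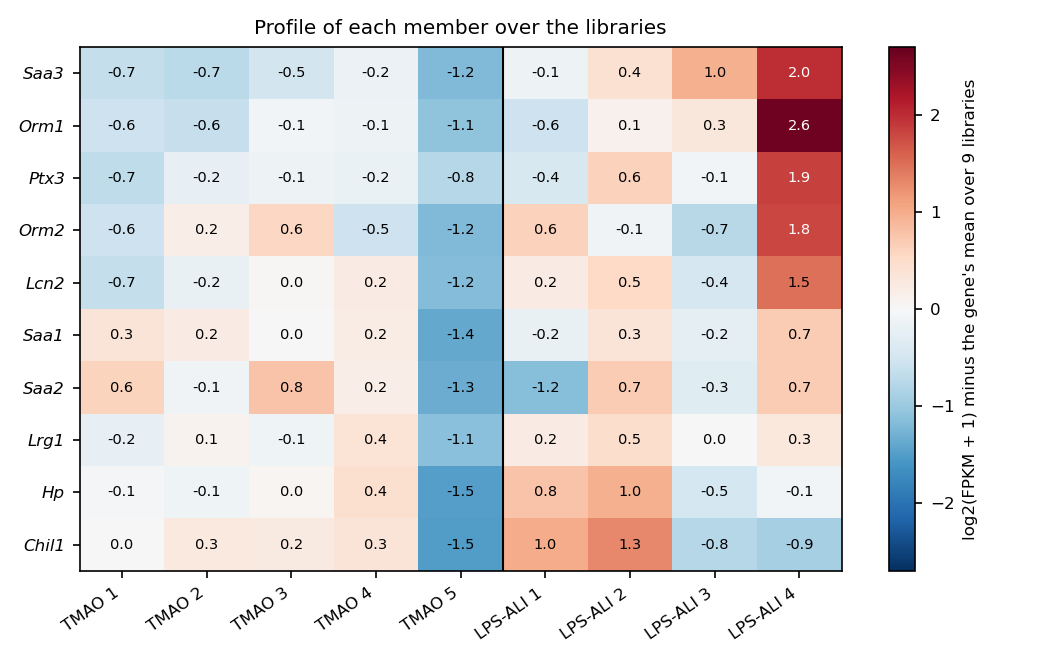
Heat map of log2(FPKM + 1) of each member in each library after subtraction of the gene's mean over the 9 libraries, TMAO libraries left of the line and LPS-ALI libraries right of it. Saa1, Saa3, Orm1, Ptx3, Orm2 and Lcn2 are highest in LPS-ALI replicate 4, Hp, Chil1 and Lrg1 in LPS-ALI replicate 2, Saa2 in TMAO replicate 3, and TMAO replicate 5 is lowest in every row. Over all tested genes 26.9% are highest in LPS-ALI replicate 4 and 74.7% are lowest in TMAO replicate 5.

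The members fell into differing library profiles, and other genes followed each of them. Likeness was measured as the root mean square difference of log2(FPKM + 1) over the 9 libraries after subtraction of each gene's mean, over 6561 genes (6562 for Orm2 and Ptx3). The profile closest to Saa3 was that of the tubulin gene Tuba1c, at 0.17 log2 units, followed by Nfil3 at 0.27 and Ccnl1 at 0.30, where the spread of Saa3 itself was 0.93. Closest to Lcn2 were Litaf at 0.11, Ube2l6 at 0.16 and Rhoc at 0.17. Orm1 was closest to Ptges at 0.24, Tuba1c at 0.30 and Sod2 at 0.30. For Chil1 they were Vnn3 at 0.17, the ceruloplasmin gene Cp at 0.18 and the surfactant protein gene Sftpd at 0.22. Hp was nearest to Bsg, Eif5b and Lcp2 at 0.19 to 0.22, and Lrg1 to M6pr, Ift27 and Arl6ip5 at 0.09 to 0.11. Saa1 was nearest to Tpgs1, Ngrn and Elk4 at 0.14 to 0.18, and Saa2 had no profile closer than Mycbp at 0.33, followed by Cpne8 and Dnpep at 0.39 and 0.41. The low-level members Orm2 and Ptx3 were nearest to Ddit3, Selenbp1 and Krt7 and to Zfp52, Trex1 and Crb3, at 0.25 to 0.30.

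Hepatocyte markers were at or near 0, although several members are best known from liver. The 13 markers summed to 1.48 to 4.85 FPKM in TMAO and 1.20 to 2.15 in LPS-ALI lungs. Alb, the albumin gene, was at 0.12 to 1.20 FPKM in TMAO and 0 to 0.40 in LPS-ALI lungs, Apoc3 was listed at 0 in every library, and 0 of 13 reached the filter. Levels of Saa1, at 17.8 to 77.2 FPKM, and of Orm1, at 9.19 to 133 FPKM, exceeded these sums in each library. The cells of origin of the Saa1 and Orm1 transcripts were not tested.

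Other acute-phase protein genes were mostly low or overlapped between the groups. Of 29, 15 were tested, 12 of these were lower and 3 higher in TMAO, and 0 had an unadjusted p below 0.05. The median difference was -0.32 against -0.17 for all tested genes, of which 72.1% were lower. Those with the smallest p were Cd14, the LPS co-receptor, with 57.4 ± 17.3 FPKM (SD, n = 5) in TMAO and 93.2 ± 39.7 (SD, n = 4) in LPS-ALI lungs, the metalloreductase gene Steap4 with 7.98 ± 3.85 and 12.8 ± 2.92, and Serpina3m with 12.03 ± 6.23 and 20.02 ± 12.3. The phospholipid transfer protein gene Pltp was higher in TMAO at 92.4 ± 61.0 FPKM against 56.9 ± 45.9 in LPS-ALI lungs (limma unadjusted p = 0.180). The 14 genes of this list that were not tested, many of them typical of liver, stayed at or below 1.23 FPKM in TMAO lungs and reached 9.01 in LPS-ALI lungs. The highest of them were in LPS-ALI replicate 4, with 9.01 FPKM for the hepcidin gene Hamp, 5.89 for the fibrinogen chain gene Fgg, 3.9 for Orm3 and 2.66 for Fga, where Crp was at 0.43. Ceruloplasmin, whose gene Cp was near Chil1 in profile, had 131, 190, 161, 205 and 44.3 FPKM in TMAO replicates 1 to 5, and 364, 328, 69.0 and 69.9 FPKM in LPS-ALI replicates 1 to 4. Like Chil1 and Hp it was highest in the B-coded LPS-ALI lungs.

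No inducer of the acute phase passed the test over all genes, with adjusted p = 0.998 by limma for each one tested. Of 10 cytokine genes 6 were tested, and 4 of them (Il6, Il1a, Csf3 and Osm) were lower with an unadjusted p below 0.05, as were 2.93% of all tested genes. This count can be raised by the filter, since its 1 FPKM in 4 libraries can be met by the 4 LPS-ALI libraries alone. In Il6 every LPS-ALI lung reached 1 FPKM, but of the TMAO lungs only replicate 3 did. Il6, the main inducer of the liver response, had 0.24, 0.72, 1.78, 0.57 and 0 FPKM in TMAO replicates 1 to 5, and 1.30, 3.76, 4.80 and 7.23 FPKM in LPS-ALI replicates 1 to 4. Its order among LPS-ALI lungs was that of Saa3, with replicate 1 lowest and replicate 4 highest. LPS-ALI replicate 4 also held the highest value of 26.9% of all tested genes. For Il6, TMAO replicate 3 reached into the LPS-ALI range. The Il6 difference was -1.61 (limma unadjusted p = 0.000865, adjusted p = 0.998). Il1a had 1.11 ± 0.488 FPKM (SD, n = 5) in TMAO and 2.78 ± 1.40 (SD, n = 4) in LPS-ALI lungs, without overlap, as 1.36% of tested genes were lower without overlap. Osm had 1.94 ± 1.05 FPKM in TMAO and 3.96 ± 1.44 in LPS-ALI lungs. Csf3 had 0.584 ± 0.581 FPKM in TMAO and 5.71 ± 8.44 in LPS-ALI lungs, of which LPS-ALI replicate 4 had 18.3. Il1b, which also induces serum amyloids, had 196 ± 60.0 FPKM in TMAO and 176 ± 79.7 in LPS-ALI lungs, a difference of 0.22 (limma unadjusted p = 0.551), and was lowest in LPS-ALI replicate 4, where Saa3 was highest. The part of Il6, Il1b and the other cytokines in the Saa3 values was not tested.

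Of 13 transcription factor genes of the acute phase 10 were tested, and all 10 had a negative difference, as did 72.1% of all tested genes. Their median was -0.52, against -0.17 for all tested genes, and none passed adjustment (limma adjusted p = 0.998 for each). An unadjusted p below 0.05 with a lower value in TMAO was found for 2 of them and for 2.93% of all tested genes. These were Cebpd at 48.2 ± 24.4 FPKM (SD, n = 5) in TMAO and 89.5 ± 12.5 (SD, n = 4) in LPS-ALI lungs, a difference of -1.01 (limma unadjusted p = 0.0163), and Cebpb at 107 ± 39.5 and 176 ± 31.1, a difference of -0.78 (limma unadjusted p = 0.0329). Both encode C/EBP proteins, activators of many acute-phase genes. The NF-kB subunit gene Nfkb2 had 15.8 ± 10.6 FPKM in TMAO and 22.7 ± 4.90 in LPS-ALI lungs, and Nfkbiz, for a nuclear cofactor needed for Lcn2 and Il6 induction in mouse macrophages, had 8.17 ± 3.65 and 13.2 ± 2.25. The liver factor gene Hnf4a was listed at 0 FPKM in TMAO lungs and at most 0.02 in LPS-ALI lungs. Receptors and signal transducers had 20 of 21 genes tested, 16 lower and 0 with an unadjusted p below 0.05, with a median of -0.19, close to that of all genes. The oncostatin M receptor gene Osmr had 4.55 ± 2.40 FPKM (SD, n = 5) in TMAO and 8.11 ± 2.25 (SD, n = 4) in LPS-ALI lungs, and the Toll-like receptor adaptor gene Myd88 had 27.8 ± 11.3 and 35.8 ± 7.91. Stat3 had 21.6 ± 10.01 FPKM in TMAO and 31.7 ± 17.6 in LPS-ALI lungs, and its feedback inhibitor Socs3 had 21.8 ± 9.71 and 33.2 ± 13.1.

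**Figure D5:**
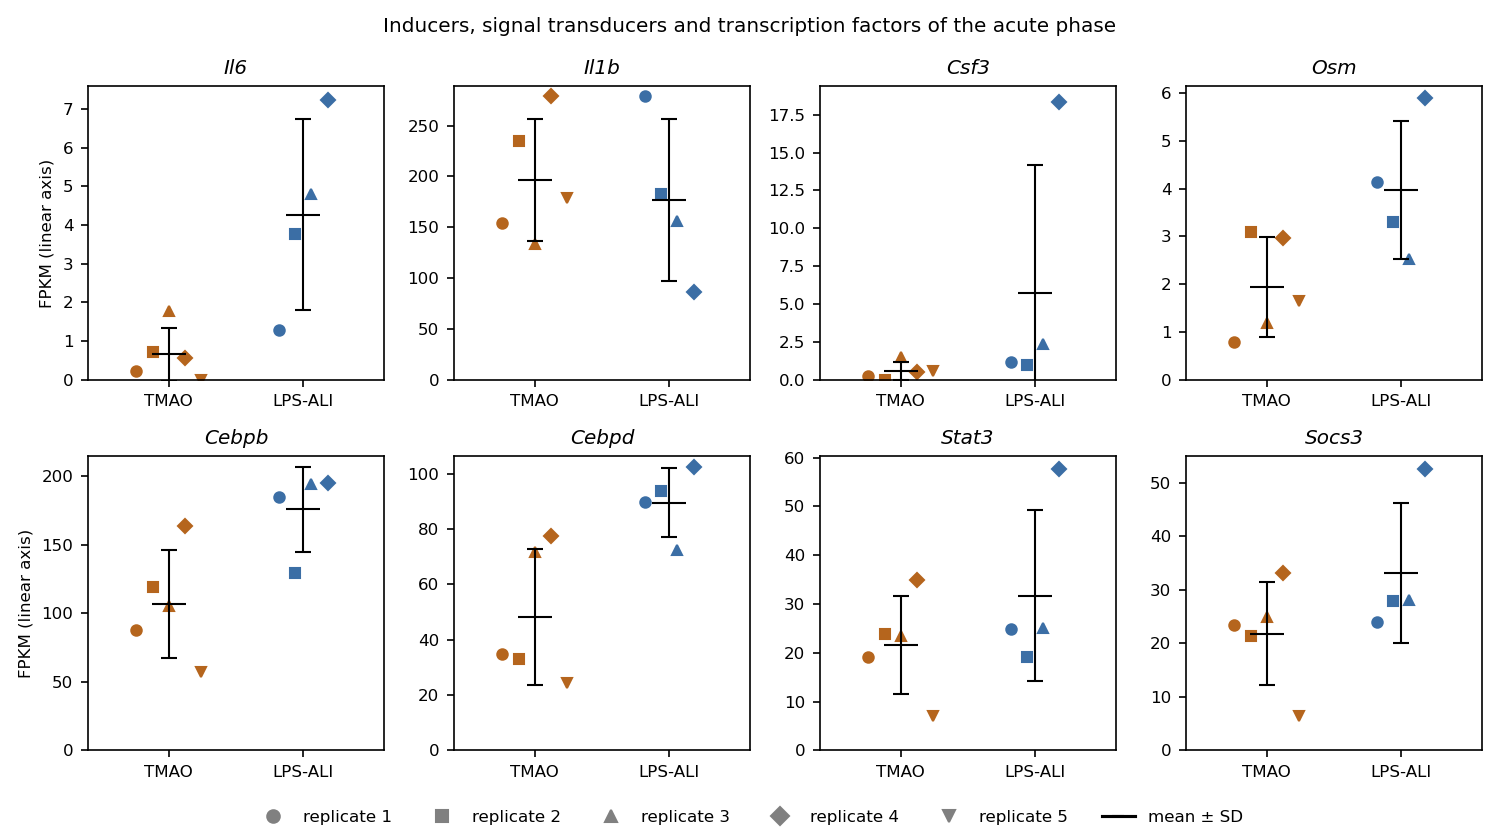
FPKM of 8 genes upstream of the acute-phase proteins in 5 TMAO and 4 LPS-ALI lungs, 1 point per mouse with mean and SD on linear axes that start at 0. Il6 reaches 1.78 FPKM in TMAO and 7.23 in LPS-ALI lungs, while Il1b overlaps between the groups and is lowest in LPS-ALI replicate 4.

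Among the receptors and binding partners of the 10 proteins, 23 of 26 genes were tested, 16 were lower and 7 higher in TMAO, with a median of -0.08 against -0.17 for all tested genes. Over all tested genes 72.1% were lower, 2.93% were lower with an unadjusted p below 0.05, and 1.36% were lower without overlap. The 2 with an unadjusted p below 0.05 (adjusted p = 0.998 by limma) were Lgals3, for galectin-3, at 65.8 ± 13.5 FPKM (SD, n = 5) in TMAO and 123 ± 52.7 (SD, n = 4) in LPS-ALI lungs, with no overlap between the groups, and Hmox1, the haem-degrading enzyme gene that works downstream of haptoglobin-bound haemoglobin uptake, at 19.7 ± 8.20 and 42.9 ± 26.8. In LPS-ALI replicate 4 they had 201 and 82.5 FPKM. Fpr2, a serum amyloid receptor of neutrophils and macrophages, had 125 ± 29.8 FPKM in TMAO and 149 ± 31.3 in LPS-ALI lungs. The lipocalin 2 receptor gene Slc22a17 was low, at 0.846 ± 0.355 and 0.930 ± 0.616 FPKM, and Cd163, the haemoglobin-haptoglobin receptor, was at 0.78 to 4.80 FPKM in TMAO and 0.76 to 4.00 in LPS-ALI lungs. Ager, which binds serum amyloids among other ligands and is highest in alveolar type 1 cells, had 244 ± 79.4 and 347 ± 99.8 FPKM, and the scavenger receptor gene Cd36 had 228 ± 131 and 152 ± 129.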

How the data were processed

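RNA was sequenced from lung tissue of 9 mice, 5 TMAO and 4 LPS-ALI. Per the labels' protocols, Trizol-extracted RNA was depleted of ribosomal RNA and made into NEBNext Ultra II libraries; their wording names platelets, while tissue and source are given as lung. The authors deposited FPKM, rounded to 2 decimals, 1 column per library. The genome build mm10 and the tools fastp, HISAT2, SAMtools and featureCounts, without versions, are named per the submitters' processing notes. Gene lengths, annotation and strand setting are not stated.

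Groups and mouse numbers came from the sample titles. FPKM are not counts, so limma 3.58.1 (R 4.3.3) with a mean-variance trend was run on log2(FPKM + 1), two-sided, over the 11817 genes that reached 1 FPKM in 4 or more libraries, with Benjamini-Hochberg adjustment over these genes and a threshold of 0.05. This scale understates changes of low genes. Exact permutation tests covered all 126 assignments. GENCODE M21 on GRCm38, the assembly of mm10, gave coordinates (52073 of 52381 identifiers matched). Transcripts and promoter windows were aligned with Biopython 1.88. Protein sequences were not used here. Python 3.11.15 with pandas 2.3.3 was used for tables and matplotlib 3.10.9 for plots. In simulated data for TMAO minus LPS-ALI with the spread of the 11817 genes, the test called 5% of those given a 2-fold change and 67% of those given a 4-fold change. The simulated noise was drawn separately for each gene, whereas real libraries shifted together, with 74.7% of tested genes lowest in TMAO replicate 5. The 5% and 67% therefore need not hold for the real data.

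The members and gene lists were chosen with earlier results of these data known. Named genes are the members, the 4 smallest p of each acute-phase, cytokine, receptor, transcription factor and partner list, Il6, Il1b, Stat3, Socs3, Cebpb, Cebpd, Fpr2 and Slc22a17, and the 3 closest profiles of each member (mean FPKM of at least 5). Crp, Fga, Fgg, Hamp, Orm3, Cp, Cd163, Hnf4a, Alb, Apoc3, Siglecf, Elane, Mpo, Camp, Ngp and Il1r2 were named after their values were seen. Chil3 and Car4 were named because marker lists share them. Replicates are separate mice. Alternatives covered pseudocounts of 0.1 and 0.5, filters, scalings, variance models, a mouse-number block and left-out libraries.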

Additional observations from a re-analysis of the deposited data

Results flagged for a closer look

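Orm1 had 133 FPKM in LPS-ALI replicate 4, far above the next value of its group, 25.8 FPKM in LPS-ALI replicate 3. Chil1 had 275 FPKM in TMAO replicate 5, far below the next value of its group, 788 FPKM in TMAO replicate 1. A single distant sample was looked for in 20 groups of 4 or 5 values (10 genes in each group of mice), and chance alone flags about 1 in 20.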

How the results depend on the processing

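The direction of Saa3, Lcn2, Orm1, Orm2, Hp and Lrg1 was the same under each alternative run that tested them. For Orm2 the difference was as small as -0.017 with library weights and -0.022 without both LPS-ALI replicate 4 and TMAO replicate 5. No gene passed an adjusted p of 0.05 by limma except 51 with library weights and 0 to 3 when single libraries were left out (3 without TMAO replicate 4, 1 without LPS-ALI replicate 3); 396 had an unadjusted p below 0.05. Saa3 was past the threshold with library weights (limma adjusted p = 0.0472). Its exact permutation p of 0.00794 is unadjusted and the smallest these group sizes allow, so it is not a pass of that threshold. The number of members without overlap between groups, 1 with all libraries, was 0 under median-of-ratios scaling, quantile normalization, rescaling to TPM and rescaling after removal of mitochondrial genes. It was 3 without the X-coded libraries, where 681 of 11390 tested genes were lower without overlap, and 1 to 3 when single libraries were left out. The 3 without LPS-ALI replicate 1 were Saa3, Orm1 and the untested Ptx3, where 240 of 11587 tested genes were lower without overlap, against 161 of 11817 with all libraries. Saa1 turned to 0.053 with the mouse number as a replicate block and, in an alternative chosen after the data were seen, to 0.23 without both LPS-ALI replicate 4 and TMAO replicate 5. Leaving out single libraries gave -0.39 to 0.053 for Saa1, -0.32 to 0.39 for Saa2 and -0.64 to 0.091 for Chil1. Chil1 turned to 0.044 under quantile normalization and 0.056 with the replicate block. The causes were not tested. Same-numbered mice did not deviate together (correlations of 0.06, -0.01, -0.03 and -0.13 for mice 1 to 4), and the block gave 0 calls. TMAO replicate 5 has no partner, so it carries no weight in the block. Absolute depth is unknown, and Orm2 and Ptx3 are too low for differences of single libraries to be read.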
